A study of Zea mays with 24 samples.

Results

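In maize kernels, 133 genes were high in both the scutellar aleurone layer (SAL) and the pericarp (Per) and low in 4 other dissected tissues. They were chosen from 26495 genes kept by a filter on low counts, out of 41614 listed. The levels are CPM, a gene's reads scaled to the library size after TMM normalisation and not adjusted for gene length. A gene was a member if its SAL and Per means were both at least 5 CPM and within 4-fold of each other. The lower of these had to be at least 4 times the highest mean of endosperm (End), of the endosperm bordering the scutellum (Endosperm Adjacent to Scutellum, EAS), embryo (Emb) and apical scutellum (AS). The rule therefore used the mean levels of all 6 tissues, and the levels in SAL and Per against the other tissues, and SAL against Per, are described without a test. CPM is not per length, so levels are not compared between genes. The order among End, EAS, Emb and AS was compared with a test, although their means are not independent of the rule: it capped the highest of them without regard to which tissue that was. The day of harvest was not used by the rule.

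Each tissue had 4 libraries, 24 in all. All 24 came from untreated greenhouse plants, labelled wild type B73 except for SAL replicate 1, which is labelled wild type alone. The age of the kernels is not in the labels, nor is the number of kernels or plants behind a sample. The labels also do not say whether End samples held aleurone, or whether Emb samples held AS. Each sample is bulk RNA of a dissected tissue, so fewer cells of a type and less RNA per cell cannot be told apart.

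The aleurone is the outermost cell layer of the endosperm and, like the rest of the endosperm, arises from fertilisation. It stores lipid and protein, stays alive in the dry grain, and secretes hydrolases that mobilise reserves at germination. The pericarp is the maternal fruit wall, a covering that protects the seed. These tissues thus differ in parentage and development while both lying at or near the outside of the kernel. The files give gene identifiers without names, and 0 of them occur in the gene table at hand, so the members are printed by identifier, at most 2 per direction. No role is given to any of them, and the tissue labels could not be checked against named marker genes.

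Libraries held between 15125315 and 61083121 reads in genes. SAL replicate 2 was the shallowest, and each other library held at least 37574771. A count of 3 reads, the upper limit that 0 reads allows, was worth between 0.0450 and 0.162 CPM depending on the library; this covers counting error only.

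The 133 members had SAL means between 5.30 and 3987 CPM with a median of 16.0 CPM, and Per means between 5.02 and 3928 CPM with a median of 27.6 CPM. The median over members was 18.7, 12.7, 16.0 and 16.6 CPM in the SAL libraries 1 to 4, and 24.6, 25.1, 26.8 and 29.8 CPM in the Per libraries. It was 2.11, 2.82, 2.97 and 3.25 CPM in the End libraries, and at most 0.766 CPM in any EAS, Emb or AS library. The lowest of the 8 SAL and Per medians was above each low-tissue median, and End lay between the high tissues and the other low ones. In 132 of the 133 members the lowest of the 8 SAL and Per libraries was above the highest of the other 16, against 8.10% of all genes kept. The rule itself asks for this pattern. The exception was Zm00001d022327, with 3.68 CPM in SAL replicate 2 and 3.92 CPM in End replicate 4.

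**Figure D1:**
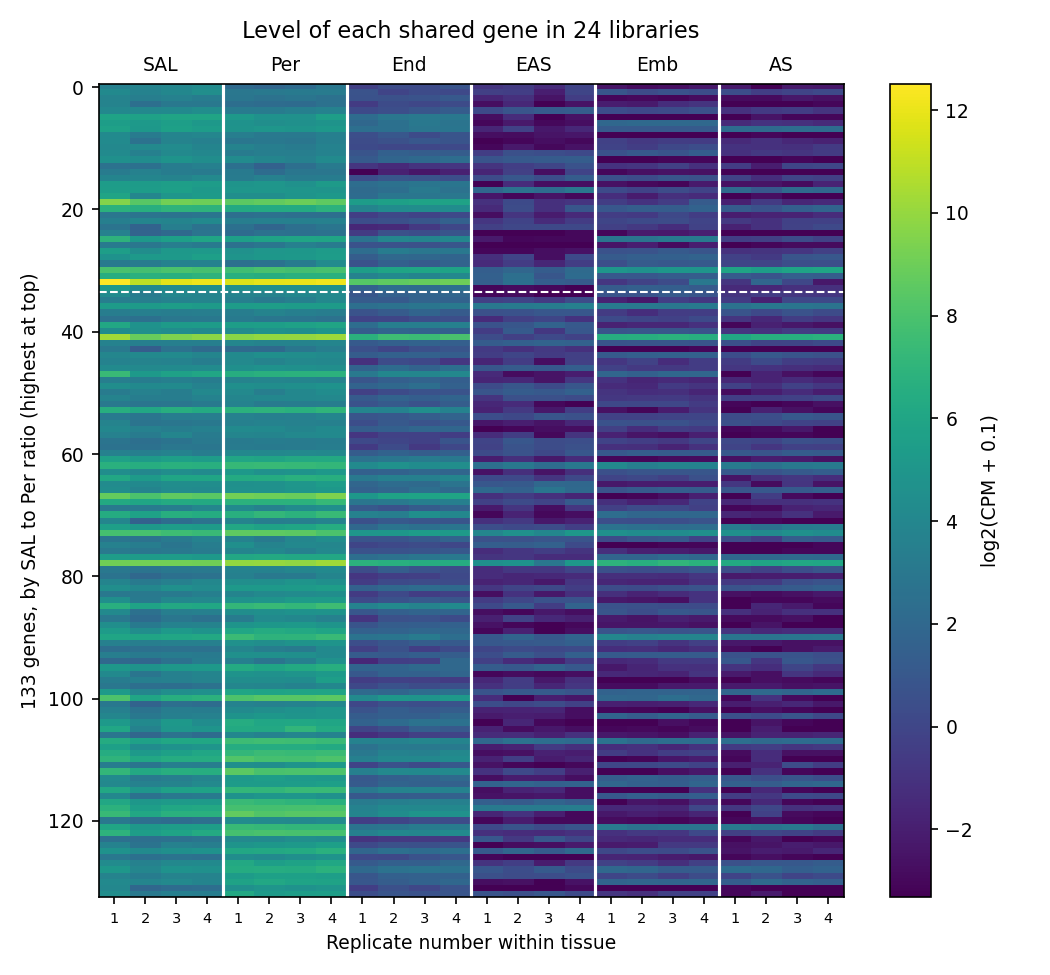
Level of each of the 133 members, as log2(CPM + 0.1), in the 24 libraries, with tissues in blocks of 4 replicates and genes ordered by their SAL to Per ratio. The 34 genes above the dashed line had the higher mean in SAL, and End is the brightest of the 4 low tissues.

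Members took 1.23% ± 0.329 of the gene reads in SAL and 1.61% ± 0.0943 in Per (SD, n = 4 each). Their share was 0.113% ± 0.0218 in End, 0.0161% ± 0.00346 in EAS, 0.0496% ± 0.00339 in Emb and 0.0381% ± 0.00277 in AS. One gene held a large part of these reads. Zm00001d025059 had 5814, 2058, 3736 and 4341 CPM in the SAL libraries and 3300, 3833, 4016 and 4564 CPM in the Per libraries. The SAL libraries spanned a wider range than the Per libraries and enclosed it. The same gene averaged 415 ± 87.8 CPM in End, 3.24 ± 1.56 in EAS, 2.57 ± 3.56 in Emb and 1.27 ± 1.59 in AS (SD, n = 4 each). It accounted for 30.2% to 42.2% of member reads in SAL libraries and 25.2% to 29.4% in Per libraries. Without it the members still took 0.750% ± 0.149 of gene reads in SAL and 1.16% ± 0.0452 in Per (SD, n = 4 each).

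**Figure D2:**
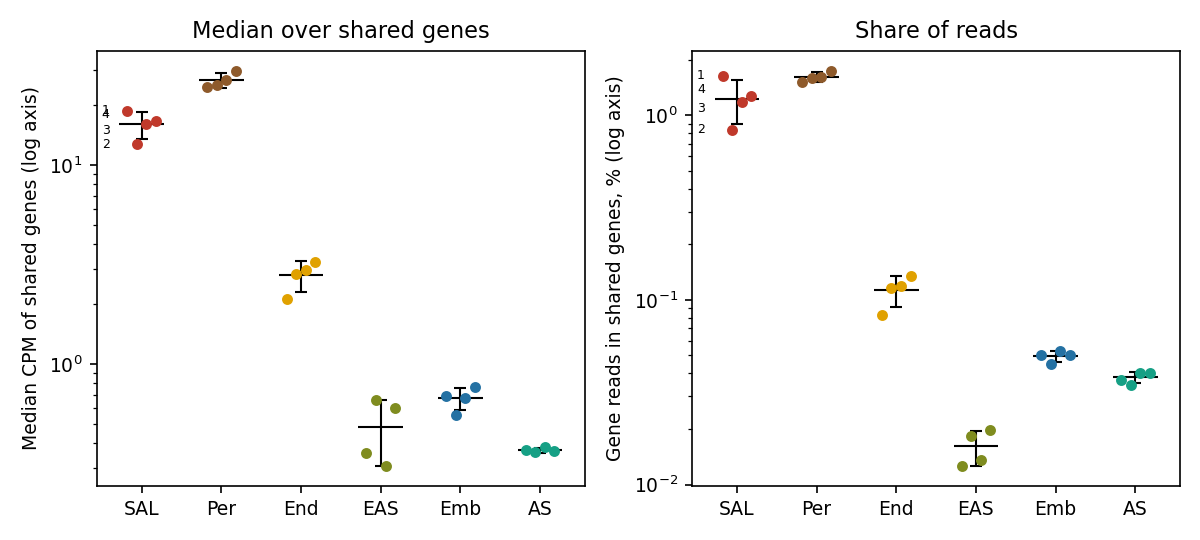
Median CPM over the 133 members (left) and their share of gene reads in percent (right) for each library, both on log axes; points are libraries, the horizontal line is the mean of 4 libraries and the bar is ± 1 SD. Digits beside the SAL points are replicate numbers: replicate 1 is the highest and replicate 2 the lowest SAL library in both panels.

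The gene with the next most reads by the lower of the SAL and Per means was Zm00001d027290. It had 1266, 462, 697 and 874 CPM in the SAL libraries and 815, 967, 1043 and 1141 CPM in the Per libraries, so the tissues overlapped. Its low-tissue pattern was unlike that of the first gene: 183 ± 58.2 CPM in End, 100.0 ± 8.51 in Emb and 94.1 ± 16.2 in AS, but 0.922 ± 0.228 in EAS (SD, n = 4 each).

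Separation from the low tissues was mostly close to the limit that the rule sets. The lower of the SAL and Per means was a median of 5.04 times the highest low-tissue mean, and 10 members reached 10 times. A single member passed 20 times. This was Zm00001d029858, with 66.3, 12.7, 31.3 and 29.5 CPM in SAL, 79.5, 74.8, 134 and 81.1 CPM in Per, and 0.832, 1.28, 2.69 and 2.04 CPM in End. Its SAL libraries were all below its Per libraries, and SAL replicate 1 was the highest of them. Zm00001d032740, the next at 17.6 times, had 11.4 ± 2.50 CPM in SAL, 15.9 ± 1.93 in Per and 0.647 ± 0.129 in End (SD, n = 4 each).

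Most members leaned to the pericarp. The SAL mean was higher in 34 members and the Per mean in 99, while SAL was higher in 51.6% of all genes kept. The median SAL to Per ratio over members was 0.638, and 83 members were within 2-fold. Per was more than 2-fold higher in 49 members and SAL in 1. The 4 SAL libraries all lay above the 4 Per libraries in 13 members, against 32.6% of all genes kept, and all below them in 79, against 32.2%. In the remaining 41 the libraries overlapped. Because the rule used both means, these are descriptions. Within replicate numbers, SAL was above Per in 41, 27, 31 and 29 of the 133 members for numbers 1 to 4. The share of all genes within replicate numbers was not worked out, so nothing is drawn from these counts. Per the labels, same-numbered SAL and Per libraries share a harvest day, except at number 4, where SAL has no date.

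The member with the largest lean to SAL was Zm00001d013825, with 12.0, 13.4, 15.0 and 19.6 CPM in SAL against 4.30, 3.62, 4.44 and 7.71 CPM in Per. The tissues did not overlap, and the SAL to Per ratio of means was 2.99. It was followed by Zm00001d011454, with 17.3 ± 4.03 CPM in SAL and 8.66 ± 0.895 CPM in Per (SD, n = 4 each). At the other end, Zm00001d002035 had 21.9, 8.50, 11.3 and 10.4 CPM in SAL against 75.9, 39.9, 45.5 and 46.5 CPM in Per, a ratio of 0.251. Replicate 1 was the highest of its 4 libraries in both tissues. Its SAL mean of 13.0 CPM was just inside the 4-fold limit, and only SAL replicate 1 was above that mean. Its membership thus rested on that library. Zm00001d029290 had 15.6, 3.74, 4.73 and 5.27 CPM in SAL against 25.0, 30.4, 26.8 and 29.8 CPM in Per. Its SAL replicate 1 stood between the other SAL libraries and Per, and its SAL replicates 2 and 3 were below the 5 CPM asked of the mean. This gene had 0 reads in Emb and 1 read each in EAS and AS.

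**Figure D3:**
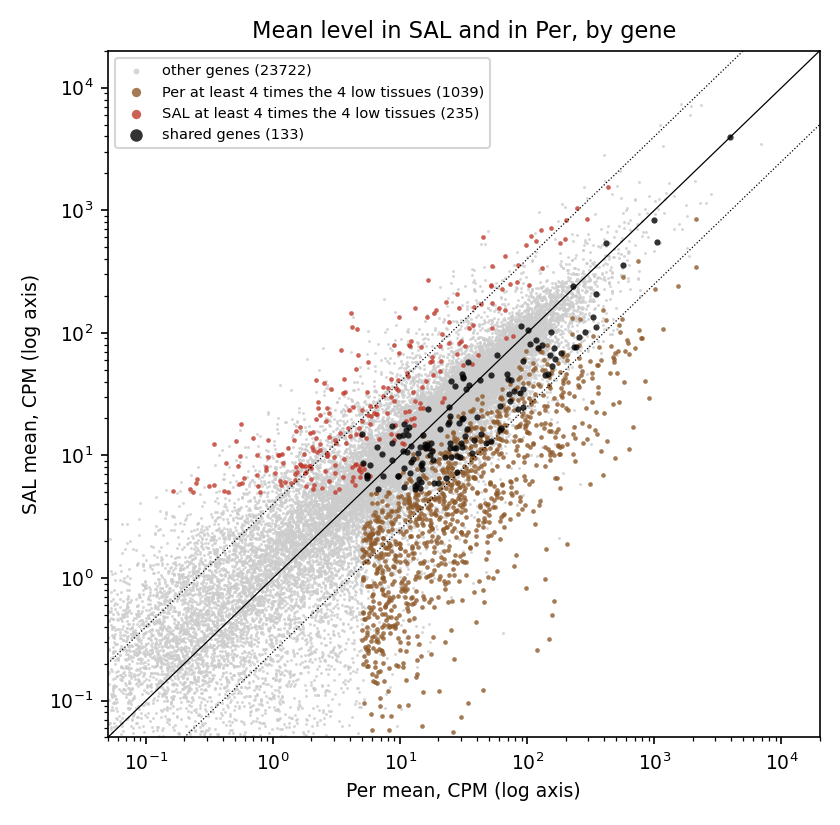
Mean CPM of each gene in SAL (vertical) and Per (horizontal), on log axes, with the line of equality and dotted lines at 4-fold; genes below 0.05 CPM in either tissue are off the plot. Brown genes are high in Per and red genes high in SAL relative to the 4 low tissues, and grey are others. The 133 members, in black, lie between the dotted lines, and 99 of them lie on the Per side of the line of equality.

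The rule takes a window out of a continuous spread of SAL to Per ratios. A wider set of 1179 genes had a Per mean of at least 5 CPM that was at least 4 times the highest of the 4 low tissues. Among these Per-high genes the SAL to Per ratio had a median of 0.190, with quartiles of 0.0771 and 0.360. The ratio was at most 1/16 in 234 genes, between 1/16 and 1/8 in 196, between 1/8 and 1/4 in 285, between 1/4 and 1/2 in 316, between 1/2 and 1 in 114 and above 1 in 34. No gap separated members from the remainder. The members made up 11.3% of the Per-high genes and 31.2% of the 426 genes chosen by the same limits from SAL. A total of 191 genes were in both sets, 16.2% of the Per-high and 44.8% of the SAL-high genes. The 58 of these that were not members all had Per more than 4-fold above SAL.

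**Figure D4:**
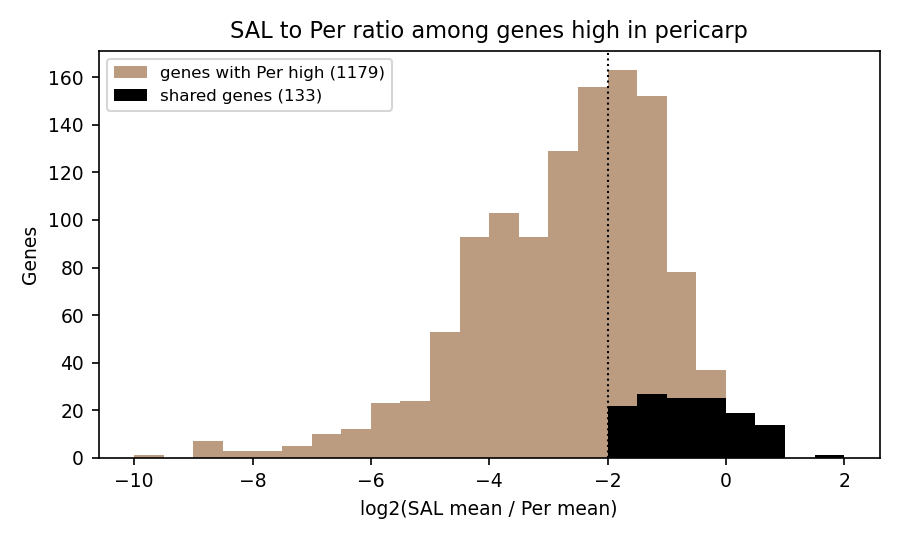
Number of genes by log2 of the SAL to Per ratio of means, for 1179 genes high in Per relative to the 4 low tissues (brown) and the 133 members (black). The dotted line is the 4-fold limit of the rule, and the brown distribution runs across it without a gap.

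The values at the limits were as follows. At the level minimum, Zm00001d013825 was just inside with a Per mean of 5.02 CPM, and Zm00001d039858 just outside with a SAL mean of 4.97 CPM. At the limit on closeness, Zm00001d002035 was inside with a 3.99-fold difference between Per and SAL, and Zm00001d017547 outside with 4.22-fold. At the limit over the low tissues, Zm00001d006639 was inside at 4.01 times and Zm00001d043912 outside at 3.97 times. Another 263 genes missed the level minimum alone.

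SAL replicates 1 and 2 were often at the ends of the SAL range in these genes. The rule used the SAL mean, so 1 high SAL library can bring a gene in. The shares and spreads below are therefore not independent of the rule and are described only. SAL replicate 1 was the highest SAL library in 74 of 133 members (55.6%), against 30.0% of the 15256 genes with SAL and Per means of at least 5 CPM. The ratio of replicate 1 to the mean of SAL replicates 2 to 4 had a median of 1.19 over members and 1.00 over those 15256 genes. It passed 2-fold in 11 members (8.27%), against 0.787% of those genes. SAL replicate 2, the shallowest library, was the lowest of the 4 in 99 members (74.4%), against 32.5% of those genes. The coefficient of variation between SAL libraries had a median of 20.0% over members against 6.70% over the same genes, and 17.9% against 6.07% without SAL replicate 1. Between Per libraries it was 13.3% against 7.90%. Without SAL replicate 1 the rule gave 111 members, 108 of them among the 133, and the median SAL to Per ratio of the 133 became 0.605. Without SAL replicate 2 it gave 159 genes, 132 of them among the 133.

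Pericarp genes were also read in the SAL libraries at levels that differed between replicates. As a gauge chosen after the data had been seen, 106 genes had a Per mean of at least 50 CPM that was at least 20 times each low tissue, with no use of SAL values. Their median level was 12.3%, 5.40%, 6.13% and 7.24% of the Per mean in SAL replicates 1 to 4. The lowest 5% of them were below 2.74%, 0.660%, 0.517% and 1.21% of the Per mean in those libraries. The members were at a median of 71.2%, 51.9%, 64.6% and 64.2% of the Per mean in the same libraries, with the lowest member at 28.8%, 13.3%, 16.9% and 18.8%. In each of the 4 libraries the lowest member was above the median of the gauge genes. The rule asked for a SAL mean of at least 0.25 of the Per mean, which largely set this order. Nothing about pericarp tissue in the SAL samples is drawn from it. The gauge genes were a median of 1.61 times higher in SAL replicate 1 than in the mean of replicates 2 to 4, and 5 of the 106 were members. The part of pericarp tissue in the SAL samples in any member's level was not tested.

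The members held 2 pairs of consecutive identifiers, whose positions the files do not give. Zm00001d035561 had 2.94 times and Zm00001d035562 3.29 times the mean of SAL replicates 2 to 4 in SAL replicate 1. Zm00001d035562 had 168, 35.8, 53.0 and 64.6 CPM in SAL, against 92.9, 104, 108 and 115 CPM in Per. Only SAL replicate 1 exceeded its Per libraries. SAL replicates 2 to 4 were all below its SAL mean of 80.4 CPM, and its End mean was 14.0 CPM. The other consecutive pair, Zm00001d027290 and Zm00001d027291, had ratios of 1.87 and 2.42 in the same library. No sequence was at hand to tell whether such pairs are near-identical copies, which would make their counts uncertain.

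Among the low tissues, End had the highest mean in most members. End was the highest low tissue for 111 members, EAS for 16, Emb for 4 and AS for 2. The same shares over all genes were not worked out, so these counts describe the members only. EAS is also endosperm, yet members took a smaller share of its gene reads than of any other tissue, at 0.0161%. The End level was a median of 0.175 of the SAL level, with quartiles of 0.126 and 0.214 below the ceiling of 0.25 that the rule sets. With the limit on End dropped, a choice made after the data had been seen, 265 genes met the rule, and End was a median of 0.220 of SAL, with quartiles of 0.165 and 0.310. Dropping instead the limit on EAS, Emb or AS gave 161, 170 and 141 genes.

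The order of the low tissues was then compared with edgeR's quasi-likelihood test over all 26495 genes. Since the rule used the means of these tissues and chose members for their SAL and Per levels, the counts of members describe the members, and the shares of all genes beside them are a background from which no support is drawn. Against Emb, End was higher in 101 of the 133 members (75.9%) and lower in 2, at an adjusted p under 0.05. Of all genes tested, 41.0% were higher and 41.5% lower. The median log2 fold change was 1.90 over members and 0 over all genes. The 4 End libraries were all above the 4 Emb libraries in 94 members (70.7%), against 37.9% of all genes. Within replicate numbers, End exceeded Emb in 111, 123, 121 and 122 members. Counts within replicate numbers are given without a share of all genes, for this and the other pairs of tissues.

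The largest fitted fold was that of Zm00001d029098, with 4.79, 7.36, 8.29 and 7.97 CPM in End and 0 reads in Emb. Against 3 reads summed over the Emb libraries it was at least 519-fold higher in End (edgeR adjusted p = 3.09e-12). Zm00001d026109 followed, with 32.5, 54.7, 56.8 and 59.4 CPM in End against 0, 0.0150, 0.0546 and 0.166 CPM in Emb (edgeR log2 ratio 9.78 with an SE of 0.53, adjusted p = 8.89e-14). Its SAL and Per means were 358 ± 73.6 and 561 ± 88.8 CPM (SD, n = 4 each), and its End mean was 0.142 of its SAL mean. Both genes had non-overlapping End and Emb libraries. The 2 members lower in End were Zm00001d034388 and Zm00001d047531. Zm00001d034388 had 6.30, 6.98, 9.33 and 5.09 CPM in End against 16.3, 12.5, 14.5 and 14.5 CPM in Emb (edgeR log2 ratio -1.06 with an SE of 0.18, adjusted p = 7.80e-06). The libraries of this gene did not overlap. Zm00001d047531 had 6.70 ± 1.26 CPM in End against 8.51 ± 0.520 in Emb (SD, n = 4 each). Its edgeR log2 ratio was -0.34 with an SE of 0.11 (edgeR adjusted p = 0.00753). Its libraries overlapped, with End replicate 4 at 8.35 CPM and Emb replicate 3 at 7.79 CPM.

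EAS, the endosperm next to the scutellum, was lower than End in 108 members (81.2%) and higher in 6 (4.51%), where 32.4% of all genes were lower and 30.2% higher. The median log2 fold change was -2.33 over members and -0.01 over all genes. EAS exceeded End in 16, 15, 13 and 17 members within replicate numbers. Zm00001d042980 had 0 reads in EAS against 1.52, 1.45, 1.41 and 1.76 CPM in End, at least 86.7-fold lower against 3 reads summed over EAS (edgeR adjusted p = 3.32e-10). Zm00001d027291 had 0.119, 0.0220, 0.0256 and 0.0239 CPM in EAS against 6.33, 15.6, 14.0 and 15.9 CPM in End (edgeR log2 ratio -8.01 with an SE of 0.57, adjusted p = 6.82e-11). These EAS values rest on 8 reads over the 4 libraries, and Emb held 7.86 ± 1.12 CPM (SD, n = 4).

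In the other direction the levels were low. Zm00001d002850 had 1.91, 0.506, 1.90 and 0.910 CPM in EAS against 0.416, 0.524, 0.520 and 0.522 CPM in End (edgeR log2 ratio 1.38 with an SE of 0.33, adjusted p = 0.000904), and EAS replicate 2 lay within the End range. Zm00001d048799 had 0.215, 0.704, 0.0513 and 0.814 CPM in EAS against 0, 0.175, 0.0917 and 0.174 CPM in End (edgeR log2 ratio 1.98 with an SE of 0.64, adjusted p = 0.0117). Its libraries overlapped, and the call was lost without EAS replicate 4 (edgeR adjusted p = 0.0551) and when EAS and End alone were fitted (edgeR adjusted p = 0.0688).

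**Figure D5:**
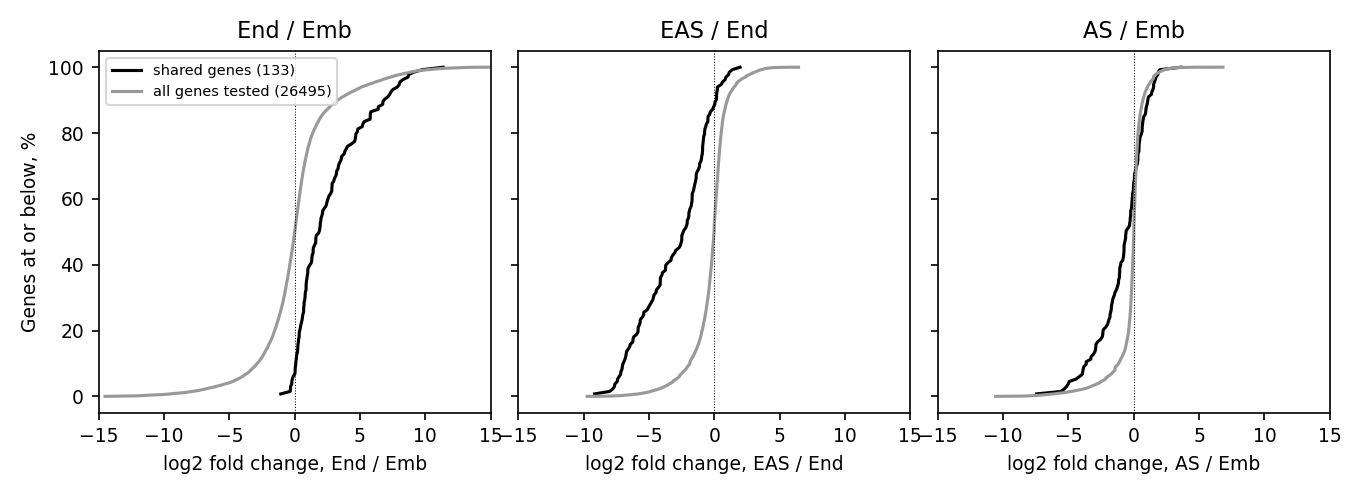
Cumulative percentage of genes by log2 fold change for End over Emb, EAS over End and AS over Emb, for the 133 members (black) and all 26495 genes tested (grey). The members' curve lies to the right of the grey curve for End over Emb and to the left for EAS over End, with medians of 1.90 and -2.33.

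AS was lower than Emb in 55 members (41.4%) and higher in 14 (10.5%), where 19.2% of all genes were lower and 18.7% higher. The median log2 fold change was -0.57 over members and 0 over all genes. AS exceeded Emb in 38, 49, 51 and 34 members within replicate numbers. Zm00001d007918 had 1 read in AS against 1.27, 1.21, 1.27 and 1.57 CPM in Emb, and the ratio of Emb to AS was 262 with a 95% counting interval of 46.7 to 10402 (edgeR adjusted p = 2.33e-07). Zm00001d035562 had 0, 0.199, 0.0602 and 0.0202 CPM in AS against 3.68, 2.74, 3.81 and 3.66 CPM in Emb (edgeR log2 ratio -5.56 with an SE of 0.69, adjusted p = 1.45e-06). The libraries of these tissues did not overlap in either gene. In SAL, Zm00001d007918 had 14.8, 2.98, 4.78 and 6.21 CPM, so replicates 2 and 3 were below the 5 CPM asked of the mean. Of the members higher in AS, Zm00001d014178 had 4.10, 1.97, 4.36 and 3.79 CPM in AS against 1.08, 0.825, 1.17 and 0.828 CPM in Emb (edgeR log2 ratio 1.87 with an SE of 0.26, adjusted p = 5.41e-06). Zm00001d032618 had 0.987 ± 0.544 CPM in AS against 0.249 ± 0.0836 in Emb (SD, n = 4 each; edgeR log2 ratio 2.00 with an SE of 0.39, adjusted p = 0.000288).

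The 16 members whose highest low tissue was EAS had a median of 10.9 CPM in SAL, 13.7 in Per, 1.77 in EAS, 1.14 in End, 0.594 in Emb and 0.614 in AS. Of these, Zm00001d047531 had 9.72 ± 1.46 CPM in EAS, with 40.9 ± 2.15 CPM in SAL and 42.1 ± 1.92 in Per (SD, n = 4 each). Its means in the other low tissues were 6.70 CPM in End, 8.51 in Emb and 6.86 in AS. The 4 members highest in Emb had a median of 8.96 CPM there and 105 CPM in Per. One of them, Zm00001d039914, averaged 116 CPM in Emb.

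Harvest day was not part of the rule. Per the labels, replicate 4 was harvested on 18 May in each tissue but SAL, whose replicate 4 has no date, and replicates 1 to 3 on 27 April, 1 May and 4 May, all in 2015, with 2 exceptions. EAS replicate 3 is labelled 5 April 2015 and Emb replicate 1 27 April 2020. Both were counted as early, on the assumption that these dates were mistyped. In 23 dated libraries, with tissue as a term, 0 members were higher in the 5 late libraries than in the 18 early ones and 0 were lower by edgeR. Calls were also rare over all genes, at 0.0302% higher and 0.00377% lower. At an unadjusted p under 0.05, 21 members (15.8%) were higher and 0 lower, against 7.36% and 5.16% of all genes. DESeq2 called 3 members higher and 0 lower, against 0.462% and 0.166% of the 25976 genes to which it gave an adjusted p. With EAS replicate 3 and Emb replicate 1 left out, edgeR called 0 members in either direction. The median log2 fold change was 0.20 over members and 0.01 over all genes.

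In Per the single late library was above each of the 3 early ones in 74 members (55.6%), against 38.5% of all genes. It was below each of them in 20 (15.0%), against 25.9%. The median over members was 29.8 CPM in the late Per library and 25.0 CPM for the mean of the early ones. In End the late library was above the 3 early ones in 64 members (48.1%), against 27.6% of all genes, and below in 4 (3.01%), against 25.7%. In EAS it was above in 50 members (37.6%), against 23.7%, and below in 15 (11.3%), against 22.9%. In Emb it was above in 55 (41.4%), against 20.8%, and below in 16 (12.0%), against 18.4%. In AS it was above in 41 (30.8%), against 23.9%, and below in 19 (14.3%), against 21.8%. The median log2 ratio of the late library to the mean of the early ones was 0.18 in Per and 0.26 in End. It was 0.15 in EAS and 0.15 in Emb, but -0.05 in AS. In AS, 63 of the 133 members were above the mean of the early libraries, a count given without a share of all genes. With 1 late library per tissue, harvest day and the sample itself cannot be told apart within a tissue.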

How the data were processed

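Poly(A)-selected, paired-end, unstranded libraries were made from about 100 mg of each tissue, per the labels' protocols. Alignment used Bowtie2 and TopHat2 against B73 RefGen_v4, per the submitters' processing notes. Neither tool versions nor the annotation release is given in the sources used here. Raw counts of reads per gene were deposited by the authors in 1 file per library. The 5 summary entries of each file and 154 microRNA entries were left out; alignments without a unique position made up 7.81% to 16.2% of a file's total, those outside genes 4.24% to 6.41% and ambiguous ones 1.07% to 2.63%. Near-identical copies and overlapping genes on opposite strands are uncertain.

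The analysis used edgeR 4.0.16 under R 4.3.3, with filterByExpr with tissue as group and a minimum count of 10, TMM scaling, CPM on the scaled library sizes, and glmQLFit with glmQLFTest on 24 libraries with tissue as the term. The harvest fit used 23 libraries with tissue and late harvest as terms. P-values were adjusted by Benjamini-Hochberg over all 26495 genes. The SE of a log2 fold change is its size divided by the square root of the F statistic. On simulated data, 71.0% of 2-fold and 89.9% of 4-fold changed genes were called in End against Emb. In late against early harvest the shares were 89.9% and 96.0%. There were 6 false calls in End against Emb and 4 in late against early harvest. The simulation gave each gene 1 level in all tissues and changed about 100 genes per fold, without a shared harvest day. In the data, 41.0% of genes were called higher and 41.5% lower in End against Emb. The simulated shares and false calls therefore do not carry over to the tests on the data. The share called at the levels of the members was not tested. DESeq2 1.42.0, other scalings and filters, and left-out libraries were the alternatives.

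The members, the lists and the rule for named genes were chosen with earlier results of these data known. That rule took up to 2 identifiers for the highest level, the largest separation, the lean to either tissue, each limit of the rule and each direction of a test. Zm00001d022327, Zm00001d035561 and Zm00001d039914 were added after their values were seen. Lists of marker and pathway genes by symbol could not be used, since 0 identifiers matched names among 49888 genes of the table at hand.

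Same-numbered libraries share a harvest day per the labels, except EAS replicate 3 and Emb replicate 1, whose labels give other dates, and SAL replicate 4, which has none. Their deviations from tissue means, over all genes as log2(CPM + 0.5), correlated with a median r of 0.120 over 60 pairs, against -0.0393 over 180 pairs with different numbers; the shared days are why the numbers were taken to pair the libraries. Pairs of libraries within a tissue differed beyond sampling noise, with a chi-square per degree of freedom of 7.32 or more. The series text calls the replicates biological, but what a replicate pooled is not in the labels, so a p-value covers only the spread between these libraries, which may be technical.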

Additional observations from a re-analysis of the deposited data

Results flagged for a closer look

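Of 84 groups of 4 libraries examined, 8 held a library far from the other 3 relative to the group's range. Chance flags about 1 in 20 groups, but the 8 cannot be compared with that rate. The genes were named for extreme values, and some groups hold few reads. A group with 1 read is flagged whichever library holds it. In SAL, replicate 1 of Zm00001d029290 stood high at 15.6 CPM. In Per, replicate 3 stood high for Zm00001d029858 at 134 CPM and for Zm00001d032618 at 28.7 CPM. In End, replicate 1 of Zm00001d002850 was low at 0.416 CPM. In EAS, replicate 1 of Zm00001d027291 was high at 0.119 CPM. For Zm00001d007918, AS replicate 2 held the tissue's single read, at 0.0199 CPM, and Emb replicate 4 was high at 1.57 CPM. Emb replicate 2 of Zm00001d035562 was low at 2.74 CPM.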

How the results depend on the processing

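The number of members depended on the limits and the scaling. It was 133 as reported, 266 on library sizes without TMM factors (all 133 among them), 16 when 8 times the low tissues was asked, 83 when SAL and Per had to be within 2-fold, and 265 without the limit on End, an alternative chosen after the data had been seen. DESeq2 size factors gave 121, of which 120 were among the 133. Leaving out 1 library, or 1 replicate number in all tissues, gave 87 to 162. The lowest came without replicate 1 of all tissues (84 shared) and the highest without replicate 2. The cause was not tested.

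The members with the higher mean in SAL numbered 30 to 37 of the 133 when 1 SAL or Per library was left out. In End against Emb the calls without 1 library were 97 to 102 higher and 2 to 3 lower, in EAS against End 4 to 7 higher and 104 to 109 lower, and in AS against Emb 10 to 15 higher and 49 to 55 lower. With a 2-fold minimum added fewer genes can pass, and all of these counts fell. They were 83 higher and 1 lower in End, 3 higher and 95 lower in EAS, and 9 higher and 46 lower in AS. With the replicate block the calls were 102 higher and 2 lower in End, 7 higher and 109 lower in EAS, and 14 higher and 57 lower in AS, so the pairing changed no count by more than 1.5 times. The late harvest coincides with replicate number 4, so that fit has no block. For it, DESeq2 called 3 members higher and the fit without AS called 1, against 0 in edgeR as reported, and the range without 1 library was 0 to 0. For the genes named in these tests, 177 alternative values kept direction and call, 3 kept direction but lost the call (Zm00001d048799 in the 2 cases given above, and Zm00001d047531 under the 2-fold minimum), and 0 reversed.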
